A study of Mus musculus with 8 samples.

Results

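The 10 genes described here are 8 alpha-defensins of mouse Paneth cells (Defa3, Defa17, Defa21, Defa22, Defa24, Defa26, Defa29 and Defa30), the further alpha-defensin listed as AY761184, and the lysozyme gene Lyz1. They were taken by symbol from the gene lists of the count matrices, where they were 10 of 32285 features in the organoid and Visium libraries and 10 of 32287 in the tissue libraries. All 8 libraries listed all 10.

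Paneth cells sit at the base of the crypts of the small intestine, between the LGR5+ stem cells, and secrete antimicrobial proteins from large granules into the crypt lumen. Alpha-defensins, called cryptdins in the mouse, are short cationic peptides that disrupt bacterial membranes. They are made as precursors, which the matrix metalloproteinase Mmp7 cleaves into the active form in mouse Paneth cells. Lysozyme cuts the peptidoglycan of bacterial cell walls. The mouse has a Paneth cell lysozyme, Lyz1, and a macrophage lysozyme, Lyz2, next to each other in the genome. Goblet cells, the mucus-secreting relatives of Paneth cells, arise from the same secretory progenitors.

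The study measured RNA in mouse intestine (strain C57BL/6) and asked which lymphatic signals meet the stem cells of the crypt. There were 4 droplet single-cell libraries and 4 spatial libraries on 10x Visium slides. Small intestinal organoids at passage 1 were grown alone (treatment CTRL) or in coculture (COCULTURE). The labels of the samples do not name the partner cells. From each culture 16 wells were pooled and 100000 epithelial cells were sorted, and the labels add that control and coculture were pooled for submission. The tissue libraries, 1 of small and 1 of large intestine, came from C57BL/6 and Lgr5-eGFP-ires-CreERT2 mice, the latter with a reporter in the stem cell gene Lgr5. Each was made up of 50000 live cells, 50000 LGR5+ stem cells and 20000 to 25000 lymphatic cells sorted on CD31, PDPN and LYVE1. The share of a cell class in these libraries therefore reflects the sort. The spatial libraries were 2 sections of small and 2 of large intestine, 10 µm thick, and both sections of each tissue are technical duplicates. Ages were not used here.

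Each single-cell group had 1 library, so no difference between groups or cell classes could be tested against replicates. Intervals given as 95% are exact and cover counting error of unique molecular identifiers (UMIs) only. Library totals ran from 24356162 to 142501907 UMIs. After filtering, 538 cells of control organoids, 1028 of cocultured organoids, 2695 of the small and 5882 of the large intestine were kept. Mitochondrial UMIs exceeded the limit of 20% in 5497 of 8842 small intestinal barcodes, so most of them were left out. The tissue libraries shared 25 barcodes and the organoid libraries 0. Levels are given as CPM, counts of a gene's UMIs per 1000000 UMIs of the cells named. UMIs count molecules and were not divided by gene length. The summed UMIs of the 10 genes are called member UMIs.

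The 8 defensins with a RefSeq entry lay within chr8:21025545-21735471 (GRCm38.p6), each gene spanning 805 to 1133 bp. Lyz1 lay at chr10:117287795-117292868, beside Lyz2 at chr10:117277541-117282272. AY761184 was not matched by symbol. RefSeq promoter entries (build GRCm38.p6) were found for 4 of the 10 genes, and the 160 bases before the start of each are shown, because they show how alike copies of these genes can be. Capitals mark the TATA box letters TATAAA and the TCF/LEF core, CTTTGA or CTTTGT, on either strand, which reads TCAAAG or ACAAAG on the other strand. TCF/LEF factors are the DNA-binding partners of beta-catenin in Wnt signalling, the pathway that sustains Paneth cells. Defa21 (chr8:21025385-21025544, + strand), Defa22 (chr8:21162117-21162276, + strand), Defa30 (chr8:21134490-21134649, + strand), Lyz1 (chr10:117292869-117293028, − strand) and, for comparison, Lyz2 (chr10:117282273-117282432, − strand) read as follows.
Defa21: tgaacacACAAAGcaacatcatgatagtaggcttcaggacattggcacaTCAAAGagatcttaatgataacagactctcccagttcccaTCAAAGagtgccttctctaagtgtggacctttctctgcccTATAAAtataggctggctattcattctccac
Defa22: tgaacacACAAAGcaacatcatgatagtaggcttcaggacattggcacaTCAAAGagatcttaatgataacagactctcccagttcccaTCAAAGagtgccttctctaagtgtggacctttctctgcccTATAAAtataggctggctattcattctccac
Defa30: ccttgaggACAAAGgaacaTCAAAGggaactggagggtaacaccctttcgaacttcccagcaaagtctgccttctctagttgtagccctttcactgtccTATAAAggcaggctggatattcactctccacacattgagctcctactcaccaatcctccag
Lyz1: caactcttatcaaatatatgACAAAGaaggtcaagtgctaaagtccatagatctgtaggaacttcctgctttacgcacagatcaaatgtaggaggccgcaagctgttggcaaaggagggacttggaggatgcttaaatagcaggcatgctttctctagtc
Lyz2: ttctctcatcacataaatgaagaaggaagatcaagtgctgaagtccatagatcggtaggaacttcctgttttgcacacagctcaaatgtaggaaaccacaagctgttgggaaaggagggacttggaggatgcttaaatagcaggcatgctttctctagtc
Defa21 and Defa22 were identical over all 300 bases of their entries, of which 250 lie upstream of the start, although the genes lie apart. Defa30 matched Defa21 in 173 of 280 alignment columns (61.8%), and Lyz1 matched Lyz2 in 78.8%. Defa21 and Defa22 held TATAAA 31 bases and TCAAAG 71 and 111 bases before the start, and ACAAAG 153 bases before it. Defa30 held TATAAA 61 bases, TCAAAG 141 bases and ACAAAG 152 bases before its start. Lyz1 held ACAAAG 140 bases before its start, and Lyz2 held none of these letters in the window. Among all 32851 promoter entries, 8.01% held TATAAA in the same 160 bases on either strand, and 18.2% held either TCF/LEF core. Transcripts and proteins were not compared. How reads were assigned between similar defensins is not given in the sources used here, so the counts of Defa21 and Defa22 are uncertain against each other, and their sum is given where that matters.

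In the small intestinal tissue library 207 of 2695 kept cells (7.68%) formed a Paneth-like class. It was found by clustering without the 10 genes, all other alpha-defensin genes and Lyz2. Its leading genes were Mptx2, Clps, Pnliprp2, Ang4 and Itln1, all of them among the Paneth markers used for naming. Member UMIs made up 64.1% of all UMIs of these cells. In the median Paneth-like cell they were 59.6%, and single cells ran from 1.54% to 77.2%. A cell carried from 38 to 134746 member UMIs, with a median of 9858.

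Defa24 was the leading gene at 331736 CPM (95% interval 331361 to 332111). Defa30 followed at 91245 CPM and AY761184 at 57558 CPM. Next came the pair with identical promoter entries, Defa21 at 47270 CPM and Defa22 at 46474 CPM. Lyz1, the only member that is not a defensin, stood at 43097 CPM (42962 to 43232). The lower members were Defa29 at 16309 CPM, Defa26 at 3848 CPM and Defa17 at 2565 CPM. Defa3 was lowest at 411 CPM (398 to 425). The 10 genes thus differed widely in level within the same cells. A further defensin listed as Gm14851, which is not among the 10, reached 58824 CPM.

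All 10 genes were higher in Paneth-like cells than in the other 2488 kept cells by a log2 ratio of at least 1, where 0.858% of the 12000 genes tested were. The Paneth-like cells held 93.9% of all member UMIs of kept cells. The log2 ratio was 5.95 for Defa24, 6.67 for Defa30 and 6.16 for Lyz1. It was highest for Defa22 at 6.85, Defa29 at 6.82 and Defa21 at 6.68, and lowest for Defa17 at 4.63 and Defa3 at 5.26. AY761184 was at 6.43 and Defa26 at 6.33. The median log2 ratio of all tested genes was −2.34, and 92.2% of them were lower by at least 1, in a total that member UMIs mostly fill in Paneth-like cells. With members and all other alpha-defensin genes, Gm14851 among them, left out of the total, the log2 ratio of the summed 10 genes rose from 6.20 to 7.98.

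The companion list held 25 other Paneth and antimicrobial genes, of which 24 were in the gene lists and 21 had enough UMIs. On the same CPM scale 9 were higher by log2 1 or more, 8 were lower, and the median log2 ratio was −0.14. The 9 higher genes were the same 9 markers that named the class, so their direction was fixed by the naming and their ratios are a description. Of the other 12 companion genes 0 were higher and 8 were lower, with a median of −1.47, beside 92.2% lower and a median of −2.34 over all tested genes. With members and all other alpha-defensin genes, Gm14851 among them, left out of the total, every ratio moves up by 1.78. Then 4 of the 12 were higher by log2 1 or more and 4 were lower, beside a median of −0.56 over all tested genes. The markers were Mptx2, a pentraxin-type protein of Paneth cells (7.16), the colipase gene Clps (6.19), the pancreatic lipase-related gene Pnliprp2 (5.61), the antimicrobial ribonuclease Ang4 (5.37) and the lectin Itln1 (5.32). Habp2 (4.47), Nupr1 (4.03), the defensin-activating protease Mmp7 (3.89) and the Wnt ligand Wnt3 (3.33) followed. Lower under both totals were the Reg3 lectins Reg3a (−5.0, and −3.22 without members in the total) and Reg3b (−4.54 and −2.75), the potassium channel Kcnn4 (−3.83 and −2.05) and the macrophage lysozyme Lyz2 (−3.07 and −1.28). The lectin Reg3g (−1.18 and 0.60), the growth factor Tgfa (−1.75 and 0.03), the Notch ligand Dll4 (−1.60 and 0.18) and the secretory regulator Xbp1 (−1.33 and 0.45) changed sign with the total. The 4 that were higher without members in the total were Atoh1 (2.03), Gfi1 (1.64), Sox9 (1.64) and Spdef (1.62). Of these, Gfi1, Sox9 and Spdef were slightly negative on the first total and so changed sign too. All 9 other Defa genes with enough UMIs were higher, with a median log2 ratio of 6.74.

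The 10 genes were also counted in every other cell of the library. No kept small intestinal cell was free of member UMIs, and the lowest count was 2. In the 1028 cells of 8 non-epithelial classes (B, plasma, T or NK, macrophage, blood and lymphatic endothelial, fibroblast and smooth muscle-like cells), which are not known to make these defensins, member UMIs were 1.96% of all UMIs. A single plasma-like cell with 88195 member UMIs among 150317 UMIs (58.7%) held 93.3% of the member UMIs of its class. Without it the value over the 8 classes was 0.678%. The median non-epithelial cell had 25.5 member UMIs, and class medians lay between 19 and 58, or between 0.241% and 0.773% of a cell's UMIs. These class medians belong to cells of very different depth, from 2802 to 25561 UMIs in the median cell.

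The mixture of the 10 genes in non-epithelial cells was close to that in Paneth-like cells. Defa24 was 51.8% of member UMIs in Paneth-like cells, and over the 8 non-epithelial classes its share had a median of 52.1% with a range of 51.1% to 53.9%. Defa30 had 14.2% in Paneth-like cells and a median of 13.7% outside. For AY761184 the values were 8.99% and 8.67%, and for Defa29 2.55% and 2.59%. Defa24 and Defa30 thus led in both, while the level itself was far lower. The genes below them changed places in some classes, with Defa22 at 7.26% in Paneth-like cells and a median of 6.44% outside. Lyz1 had 6.73% in Paneth-like cells and a median of 7.42% in non-epithelial classes, and the macrophage-like class had the highest value at 10.0%. Defa17 and Defa3 departed from the pattern, with 0.400% against 0.947% and 0.0642% against 0.180%. Among the barcodes that failed the cell filter, member UMIs were at 35953 CPM, and the Defa24 share there was 52.0%.

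**Figure D1:**
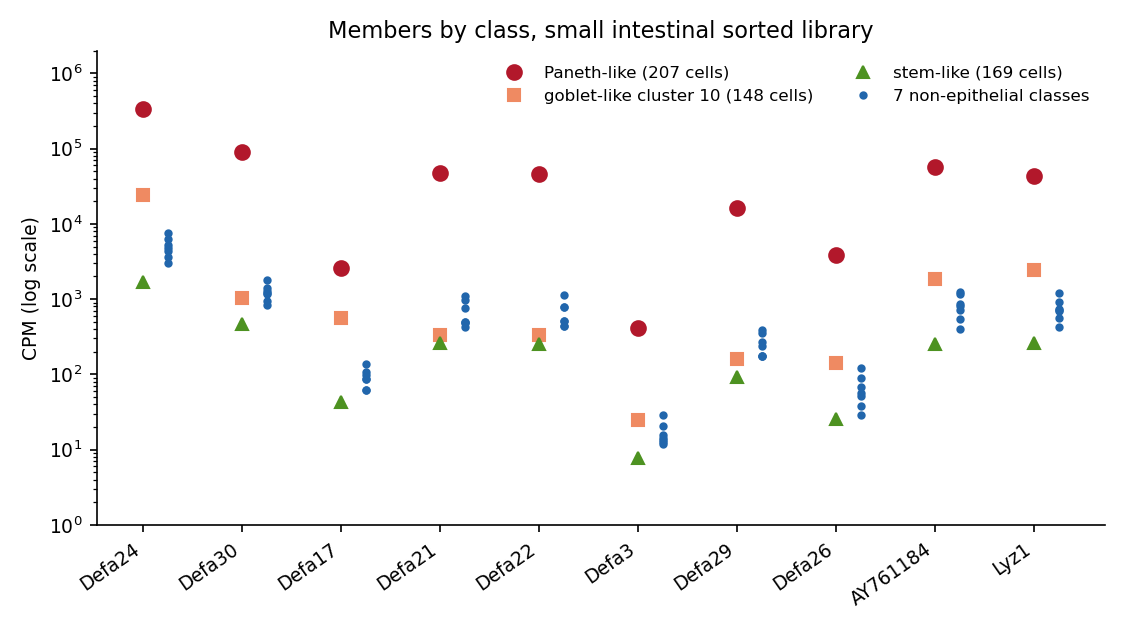
Level of each of the 10 genes (y axis, CPM, log scale) in small intestinal Paneth-like cells, goblet-like cluster 10, stem-like cells and 7 non-epithelial classes (1 point a class), from 1 library. The plasma-like class is left out because 1 cell held 93.3% of its member UMIs. The Paneth-like points are highest for all 10 genes, and the goblet-like points stand above the non-epithelial classes for Defa24, Defa17 and Lyz1 but not for Defa30, Defa21, Defa22 and Defa29.

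A goblet-like cluster carried a different mixture. This cluster, number 10 of the small intestinal library with 148 cells, had Defa24 at 24404 CPM (24252 to 24557), Lyz1 at 2414 CPM, AY761184 at 1853 CPM, Defa30 at 1042 CPM and Defa17 at 558 CPM. These pooled levels came mostly from a minority of its cells. The median cell of the cluster had 0.584% member UMIs, against 0.589% in the median non-epithelial cell, and the highest had 32.3%. These medians differ in depth, so they do not place the median cell of the cluster at background. It had 27207 UMIs, whereas non-epithelial class medians other than that of plasma-like cells were at most 7051. In plasma-like cells (median 25561 UMIs) the median was 0.241%, and in stem-like cells (20467 UMIs) it was 0.281%. Median member UMIs per cell were 128 in the cluster, 58 in plasma-like and 56 in stem-like cells. Against the pooled non-epithelial classes without the single plasma-like cell, Defa17 was higher by log2 2.86 (2.72 to 3.0), Defa24 by 2.79 (2.77 to 2.81) and Lyz1 by 2.20 (2.15 to 2.26). Defa26 was higher by 1.80, AY761184 by 1.69 and Defa3 by 1.04. Defa30 differed by only 0.20 and Defa29 by −0.08, and Defa21 and Defa22 were lower by log2 −0.47 and −0.48. Against the 169 stem-like cells the leading genes were the same, with Defa24 at 3.84, Defa17 at 3.69, Lyz1 at 3.23 and AY761184 at 2.88, and Defa30 at 1.18, Defa29 at 0.78 and both Defa21 and Defa22 at 0.39.

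Cells of this cluster with at least 500 member UMIs numbered 39 of 148. Their median Defa24 share of member UMIs was 89.3% (from 58.7% to 95.8% between the percentiles 5 and 95), whereas the 202 Paneth-like cells with as many member UMIs had a median of 52.8%. The median ratio of Defa24 to Defa30 UMIs was 41.8 in these 39 cells and 3.72 in the Paneth-like cells. Goblet markers (Muc2, Tff3, Fcgbp, Clca1, Zg16, Spink4 and Agr2) were a median of 11.9% of their UMIs, against 1.16% in the Paneth-like cells. Paneth markers were 1.58% against 6.53%. These are shares of all UMIs. Member UMIs were a median of 59.6% in the Paneth-like class, which lowers the share of every other gene there. Over all 148 cells of the cluster the medians were 0.385% for Paneth markers and 12.2% for goblet markers, so within it the Paneth marker share was higher in the cells with many member UMIs. The part of these marker levels in the Defa24 signal was not tested. The other goblet-like cluster, of 72 cells, had 2 cells with at least 500 member UMIs and Defa24 at 6086 CPM. There 1 cell held 37.8% of the member UMIs, which were 0.828% of all UMIs with it and 0.532% without it.

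Paneth-like cells differed among themselves in the mixture of defensins far beyond counting error. Over the 202 cells with at least 500 member UMIs, Defa24 was the most abundant member in 202 of 202, with a share between 36.3% and 76.3% of member UMIs. The share of Defa30 ran from 0.690% to 22.9% with a median of 14.1%. Defa21 and Defa22 had the widest spread relative to counting error. Defa21 ran from 0.0828% to 23.5% with a median of 5.03%, and Defa22 from 0.0690% to 22.7% with a median of 5.14%. The SD of the share between cells was 17.2 times the SD that counting alone gives for Defa21, 16.5 times for Defa22 and 11.5 times for AY761184. It was 10.3 times for Defa24, 9.81 times for Defa30 and 9.15 times for Lyz1. For Defa3, the scarcest gene, it was 1.18 times, so its variation between cells was not detectable much above counting at this depth.

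Defa21 and Defa22 moved together across these cells. The Pearson correlation of their shares was 0.91 and that of their log2 UMIs per UMI of the other genes was 0.92, over 202 cells of 1 library. Whether reads were shared between them was not tested. Their sum ran from 0.152% to 42.1% of member UMIs with a median of 10.2%. AY761184 ran from 0.951% to 21.0% with a median of 9.34%, and its share was low where that of the pair was high, with a correlation of −0.75. Shares of 1 total are bound to trade off. Taken per Defa24 UMI on a log2 scale, the correlation of the pair with AY761184 was −0.54, and on the log2 scale per UMI of the other genes that of Defa21 with AY761184 was 0.16. The sign thus depended on the scale, and these values describe the cells of a single library.

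**Figure D2:**
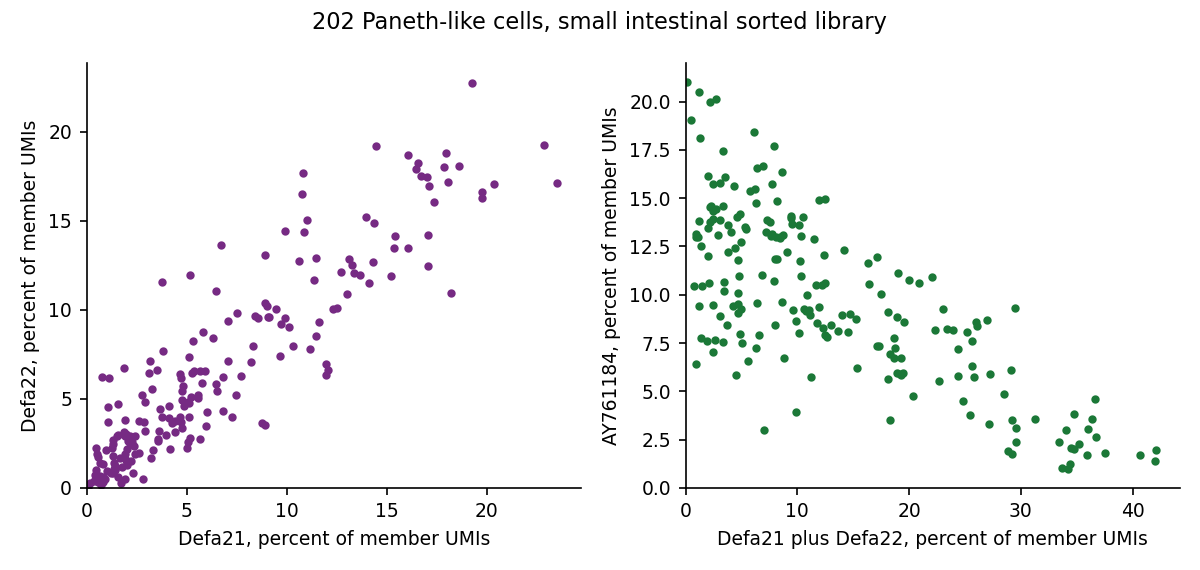
Shares of member UMIs in 202 small intestinal Paneth-like cells (1 point a cell). Left, Defa21 (x axis, percent) against Defa22 (y axis, percent), which rise together (r = 0.91). Right, Defa21 plus Defa22 (x axis, percent) against AY761184 (y axis, percent), where cells above 30% on the x axis have low AY761184 shares (r = −0.75).

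Among 710 other genes with enough UMIs, the share of the Defa21 and Defa22 pair was most negatively correlated with Rnase1, a secreted ribonuclease (r = −0.57 over 202 cells, and 0.43 with the AY761184 share). Reg4, a secreted lectin-like protein, was at −0.32. The highest positive values were those of Car8 (0.35, and −0.36 with the AY761184 share) and of the guanylin gene Guca2a (0.25). These genes were named after their values were seen, and cells are not replicates.

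In the organoids no cluster took the Paneth name by the marker rule, so the cluster with the highest level of Paneth markers was used. Its leading genes were Ccl6, Ccl9, Ang4, Copz2 and Muc2, the marker rule named it goblet-like, and it is called the secretory cluster here. It held 27 of 538 control cells (5.02%, exact 95% interval 3.33% to 7.22%) and 56 of 1028 cocultured cells (5.45%, 4.14% to 7.02%), intervals that cover counting of cells in 1 library each. It contained 97.7% and 98.0% of all member UMIs. Member UMIs were concentrated in few cells even there, since 11 of 27 and 23 of 56 cells had fewer than 100. Over all kept cells, 50% of member UMIs came from 4 control cells and 6 cocultured cells.

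Within the secretory cluster the summed 10 genes stood at 73279 CPM in control and 137386 CPM in cocultured organoids, a log2 difference of 0.91 (0.90 to 0.91). The difference was at least log2 1 for 7 of 10 genes, where 1.2% of 4739 tested genes were this much higher and the median of all was −0.19. None of the 10 was lower by log2 1, against 2.43% of tested genes. The 2 conditions were 1 library each, so whether this difference exceeds that between cultures was not tested.

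Defa24 stood at 41997 CPM in control secretory cells and at 78773 CPM in cocultured ones, a log2 difference of 0.91. Defa30 was at 10156 and 25615 CPM (1.33), and Defa17 at 6453 and 12921 CPM (1.00). Of each of these 3 genes, 50% of the UMIs came from 3 control cells and from 3 to 7 cocultured cells. Defa29 stood at 453 and 2039 CPM (2.17), with 63.4% of its control and 40.3% of its cocultured UMIs in 1 cell each, and was at 2.84 without these cells. Defa26 stood at 385 and 1025 CPM (1.41) and Defa3 at 493 and 1035 CPM (1.07). Lyz1 was nearly level at 10789 and 12528 CPM (0.22). AY761184 was lower in the coculture, at 2476 and 1685 CPM (−0.56), but 1 control cell held 53.3% of its control UMIs, and without the top cell of each library the difference was 0.03. Defa22 was at 76.8 and 1021 CPM (3.73), with 59.1% of the control and 58.6% of the cocultured UMIs in 1 cell each, and at 3.71 without these cells. Defa21 had 4 UMIs in the control cluster and 3511 in the coculture cluster, of which 3361 (95.7%) lay in 1 cell, and its log2 difference was 9.20 with and 5.01 without the top cell of each library.

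The summed secretory markers were higher in the same cluster too. The 9 Paneth markers summed to 11612 CPM in control and 20915 CPM in coculture, and 4 of 8 tested ones passed log2 1. The 7 goblet markers summed to 28016 and 44911 CPM. None of these markers was at 0 in either library. Of 14 tested companion genes 5 were higher by log2 1 or more, and the median was 0.41. Nupr1 (1.95), Pnliprp2 (1.87), Clps (1.18) and Ang4 (1.10) are among the Paneth markers just counted, and the secretory regulator Spdef (1.25) is not. Their part in the difference of the 10 genes was not tested.

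Over all kept cells the summed 10 genes were at 5463 and 6821 CPM (log2 0.32). There 3 of 10 genes were higher by log2 1, with 1.17% of 11189 genes tested, and 1 (AY761184, at −1.13) was lower, with 2.45%. Without the top cell of each library AY761184 was at −0.51 and no longer past log2 1. Lyz1 had a log2 difference of −0.37. As a mean of single-cell levels Lyz1 was level at 694 and 695 CPM, and the summed 10 genes were at 4630 and 7203 CPM. In the other organoid cells the summed 10 genes were at 135 and 143 CPM (0.08).

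Organoid secretory cells fell into 2 kinds by Defa30, a grouping made after the values were seen. Of the 15 control cells with at least 500 member UMIs, 8 had under 1% of them from Defa30, 7 had 5% or more and 0 lay between. Of the 32 cocultured cells the numbers were 18, 14 and 0. In small intestinal Paneth-like cells 197 of 202 had 5% or more, 4 lay between and 1 had under 1%, while in goblet-like cluster 10 they were 2, 34 and 3 of 39. Both cultures thus held cells rich in Defa24 with next to no Defa30, beside cells with both.

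In the organoid cells with under 1% Defa30, Defa24 still reached 30205 CPM in control and 95096 CPM in coculture, Defa17 4056 and 15841 CPM, and Lyz1 9123 and 13599 CPM. Defa21 had 0 UMIs in these 8 control and 18 cocultured cells. Defa22 and Defa29 had 0 UMIs in the 8 control cells and 13 UMIs each in the 18 cocultured cells. In the cells with 5% or more, Defa24 was at 99483 and 145436 CPM, Defa30 at 30435 and 77251 CPM, and Defa29 at 1358 and 6169 CPM. Marker lists of the 2 cell types did not split cleanly along Defa30. In control, 3 of 7 goblet markers and 1 of 9 Paneth markers were higher in the cells with under 1% Defa30. In coculture these were 7 of 7 goblet markers and 4 of 9 Paneth markers. Summed goblet markers were at 34704 CPM in the cells with under 1% and 39258 CPM in those with 5% or more in control, and at 55424 and 39944 CPM in coculture. Summed Paneth markers were at 12026 against 23391 CPM and at 29466 against 33106 CPM. The goblet markers with the same direction in both cultures were Fcgbp, Agr2 and Tff3, with the IgG-binding mucus protein Fcgbp at 3526 against 1381 CPM in control and 3425 against 1538 CPM in coculture. Among the Paneth markers Ang4, Itln1, Clps, Pnliprp2 and the scarce Mptx2 were lower in the cells with under 1% in both cultures. The ribonuclease Ang4 was at 254 against 2566 CPM and 1462 against 4607 CPM. Wnt3 was higher in both, at 70.5 against 58.1 CPM and 75.5 against 41.8 CPM, and Mmp7, Nupr1 and Habp2 differed in direction between the cultures. The named markers were chosen after their values were seen. Since the cells were split on Defa30, no test is given.

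**Figure D3:**
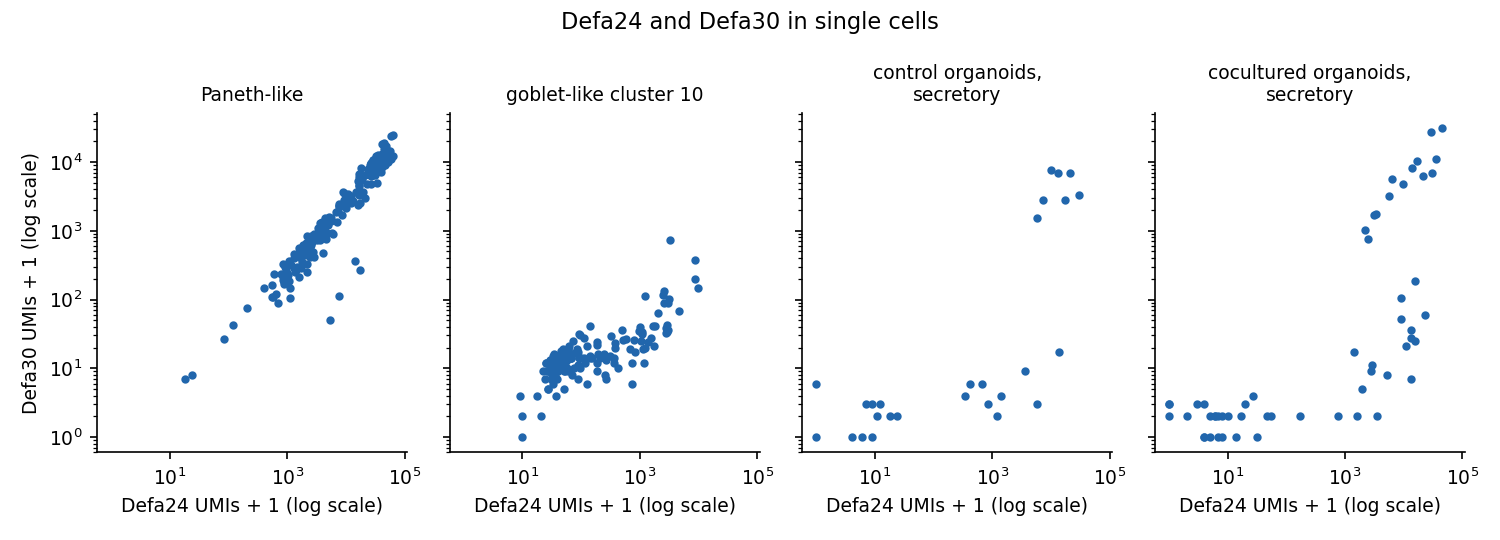
UMIs of Defa24 (x axis, plus 1, log scale) against Defa30 (y axis, plus 1, log scale) in single cells (1 point a cell) of 4 cell groups. Paneth-like cells lie on 1 diagonal, goblet-like cells lie below it, and the organoid secretory cells form an upper group of 7 control and 14 cocultured cells and a lower group of 8 and 18 cells with at least 500 member UMIs.

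The mixture of the 10 genes also differed between preparations of small intestine, which is seen most plainly when each gene is counted per 100 UMIs of Defa24. Defa17 had 0.773 UMIs in tissue Paneth-like cells, 15.4 and 16.4 in control and cocultured secretory cells, and 22.3 and 30.8 in the Visium sections. AY761184 went the other way, with 17.4 in Paneth-like cells, 5.89 and 2.14 in organoids, and 2.36 and 1.73 in sections. Defa17 was thus scarce and AY761184 abundant in the sorted tissue, and the reverse held elsewhere. Defa21 had 14.2 in Paneth-like cells and 16.1 and 10.1 in sections, but 0.00302 and 0.945 in organoids, and Defa22 had 14.0, then 21.6 and 14.2, but 0.183 and 1.30 in organoids. Defa30 varied less, with 27.5 in Paneth-like cells, 24.2 and 32.5 in organoids, and 48.1 and 48.9 in sections. Lyz1 was between 13.0 and 25.7 in all of them. Defa3 had 0.124 in Paneth-like cells and between 1.17 and 4.23 elsewhere. The preparations differ in mice, in method and in which stretch of intestine they may hold, and these cannot be told apart here.

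**Figure D4:**
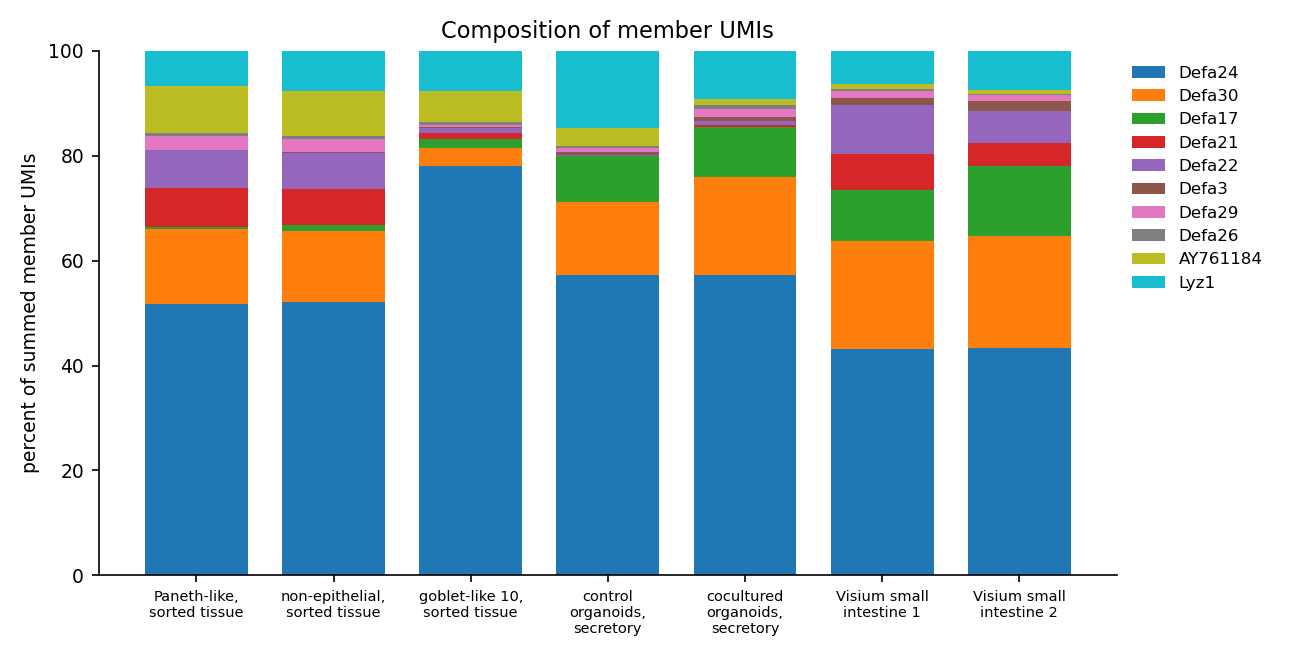
Share of each of the 10 genes in summed member UMIs (y axis, percent) in 7 cell groups or sections. The Paneth-like and non-epithelial bars are nearly alike, Defa24 fills most of the goblet-like bar, Defa21 and Defa22 are nearly absent from both organoid bars, and Defa17 is widest in the Visium and organoid bars.

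In the Visium sections of small intestine, member UMIs were 4.80% of all UMIs in section 1 (2094 spots) and 2.58% in section 2 (2571 spots). A spot covers several cells, with a median of 10208.5 UMIs in section 1 and 9039 in section 2. Every spot held member UMIs. The tenth of spots with the most (209 and 257 spots) held 60.4% and 62.9% of them, and the highest single spots were 53.9% and 38.5% member UMIs. Defa24 led with 20663 and 11215 CPM, before Defa30 with 9934 and 5485 CPM. Defa17 was at 4605 and 3456 CPM, Defa22 at 4471 and 1592 CPM, Defa21 at 3318 and 1128 CPM, and Lyz1 at 3007 and 1919 CPM. Below 1000 CPM in both sections were Defa29 (688 and 297), Defa3 (624 and 474), AY761184 (487 and 194) and Defa26 (182 and 79.6).

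The sections of large intestine had almost none of the defensins. Each of the 9 defensins had between 0 and 12 UMIs in a section, against 2396 to 503262 in the small intestinal sections. Section 1 of the large intestine had 12 UMIs of Defa24 and 3 of Defa30, and section 2 had 6 and 5. Lyz1 had 278 and 282 UMIs (6.74 and 6.43 CPM). The summed 10 genes were at 7.17 and 6.78 CPM, so their mean level in small intestine was higher by log2 12.30, and by 11.81 for the lower small intestinal over the higher large intestinal section. All 10 genes were higher by at least log2 1 on that stricter reading, where 10.3% of 12646 tested genes were, and 12 of 22 tested companion genes were. Fewer Paneth cells and less RNA per cell cannot be told apart in such bulk sums. Lyz2 went the opposite way, with 47.6 and 48.6 CPM in small and 376 and 360 CPM in large intestinal sections.

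**Figure D5:**
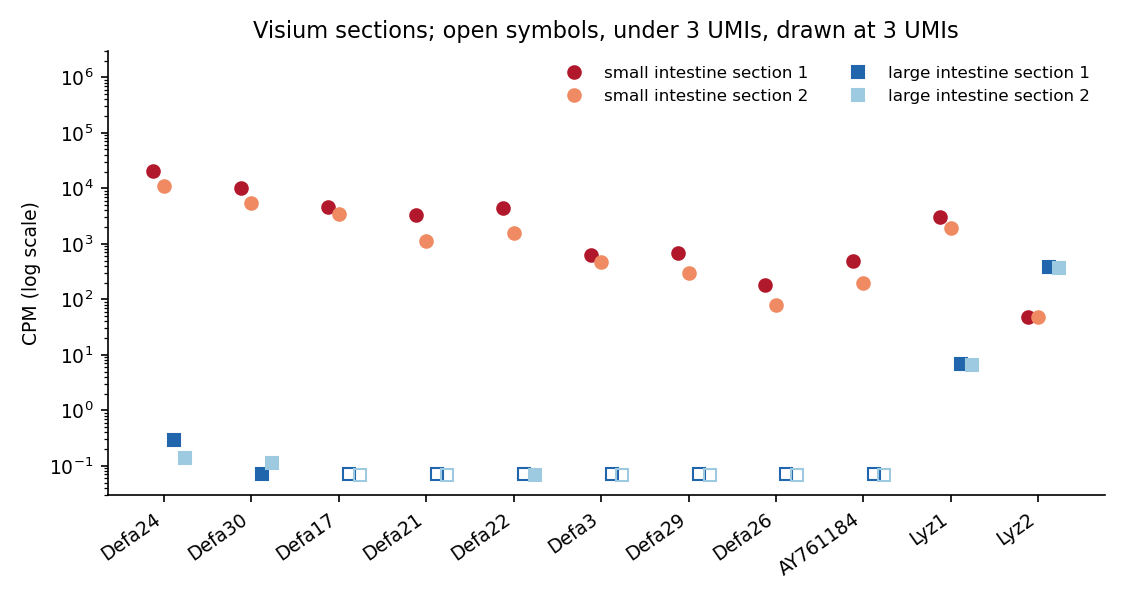
Level of each of the 10 genes and of Lyz2 (y axis, CPM, log scale) in 2 small and 2 large intestinal Visium sections (1 point a section). Open symbols had under 3 UMIs and are drawn at the level of 3. All 10 genes are higher in both small intestinal sections, and Lyz2 is higher in both large intestinal sections.

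The duplicate sections of small intestine did not have the same mixture. The summed 10 genes were higher in section 1 than in section 2 by log2 0.89, and 5 of 10 genes by at least 1, where 0.208% of 11550 tested genes were. These were Defa21 (1.56), Defa22 (1.49), AY761184 (1.33), Defa29 (1.21) and Defa26 (1.19). Defa24 (0.88), Defa30 (0.86) and Lyz1 (0.65) differed less, and Defa17 (0.41) and Defa3 (0.39) least. Of 22 companion genes 2 were higher by log2 1, with a median of 0.21. A difference of this size between duplicates sets the scale for reading other differences of these genes in sections.

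Spots with many Paneth marker UMIs had more of the 10 genes. After each spot was thinned to 2000 UMIs, nearly every spot had a Paneth marker UMI, 2058 against 5 spots without in section 1 and 2375 against 49 in section 2, so the tenth of spots highest in these markers was also set against the lower 50% of spots, a split added after the data were seen. In section 1 the 206 highest spots had 528 member UMIs each and the 1031 lower spots 26.2, a log2 difference of 4.33. In section 2 it was 374 in 242 spots against 16.3 in 1212 spots, at 4.52. Spots with a stem marker UMI had 152 against 36.1 member UMIs in section 1 and 108 against 23.3 in section 2. Stem markers and the 10 genes were thus found in the same spots, each of which spans several cells.

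Spots were also split by the ileal genes Fabp6, Slc10a2, Slc51a and Slc51b, which take up and pass on bile acids in the distal small intestine. In 1964 spots with such a UMI Defa21 plus Defa22 were 14.7% of member UMIs in section 1, and in 99 spots without they were 17.1%. In section 2 the values were 8.5% in 2324 spots and 10.3% in 100 spots. Defa17 went the other way, at 10.9% against 9.07% and at 14.7% against 13.2%. The split did not separate stretches of intestine alone. Spots with an ileal UMI had a mean of 16.0 enterocyte marker UMIs against 1.95 without in section 1, and 19.0 against 2.59 in section 2. Spots with a UMI of the proximal genes Lct, Gata4 or Adh6a also had more ileal UMIs, with medians of 17 against 11 and 18 against 10. Split by these proximal genes, the pair was 14.55% against 15.04% of member UMIs in section 1 and 8.39% against 8.64% in section 2. These differences of a few percentage points in thinned spots are smaller than that between the sections. Without thinning only 10 spots of section 2 lacked ileal UMIs, and the difference of the pair by ileal genes turned direction there. The thinned spots without ileal UMIs also had more member UMIs in all, 305 against 92.0 in section 1 and 123 against 65.2 in section 2. Within sections the share of the Defa21 and Defa22 pair was negatively correlated over spots with that of Defa17 (−0.56 over 807 and −0.54 over 605 spots), and hardly with that of AY761184 (0.12 and 0.09). Over the 202 Paneth-like cells the share of Defa21 had correlations of −0.79 with Defa24, −0.72 with AY761184, −0.50 with Defa30 and −0.31 with Defa17.

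In the sorted large intestinal library the defensins were at the limit of detection. Among 142501907 UMIs there were 9 of Defa24, 1 of Defa21 and 0 of the other 7, where 3 UMIs, the limit set for a count of 0, amount to 0.0211 CPM. Lyz1 had 1739 UMIs (12.2 CPM). A macrophage-like class of 197 cells held 48.7% of the kept Lyz1 UMIs at 488 CPM, beside Lyz2 at 8581 CPM. In the small intestinal library the macrophage-like class was at 699 CPM for Lyz1 and 6204 CPM for Lyz2. That Lyz1 level was within the range of other non-epithelial classes there, such as B-like cells at 710 CPM and lymphatic endothelial-like cells at 567 CPM. The other members were present in the macrophage-like class as well, at 19.5 Lyz1 UMIs per 100 of Defa24, against 13.0 in Paneth-like cells. Lyz1 was also counted in 3 further clusters of the large intestine, at 33.7 CPM (406 cells, led by Cma1 and Chodl), 77.9 CPM (95 cells, led by Wfdc12 and Cma1) and 29.4 CPM (194 cells, led by Rab3b, Spink1 and Zg16). Their median cells had 0 Lyz1 UMIs, and leaving out the highest cell of each gave 25.1, 50.7 and 14.8 CPM. The macrophage-like class of the large intestine was at 360 CPM without its top cell. Its median cell had 0 Lyz1 UMIs too, and 20.3% of its cells had any. A cluster of 429 cells matched the Paneth marker list there through Mmp7 and Ang4 but had 6 member UMIs in all, and it is not called Paneth.

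Of the 5 genes whose level was most alike to that of the summed 10 genes, Itln1 and Mptx2 were common to single cells and both sections. Across 45 cell classes of the 4 single-cell libraries, and among 14997 genes, the highest Pearson correlations of log2(CPM + 1) were those of Itln1 (0.92), Mptx2 (0.83), Pnliprp2 (0.78), Olfm4 (0.77) and Mmp7 (0.75). Over the 2094 spots of section 1 they were those of Itln1 (0.94), Mptx2 (0.88), Reg4 (0.85), Clps (0.81) and the stem cell gene Olfm4 (0.75). Over the 2571 spots of section 2 they were those of Itln1 (0.90), Reg4 (0.80), Mptx2 (0.80), Clps (0.72) and Spink4 (0.71). Itln1, Mptx2, Pnliprp2 and Mmp7 are among the Paneth markers that named the class with most member UMIs. Their values over classes were therefore largely set by the naming. Classes of a library share its free RNA, and a spot covers several cells, so these values are descriptions.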

How the data were processed

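Single-cell and Visium libraries of mouse intestine were analysed from the deposited count matrices, whose values are raw UMI counts per gene and barcode, with no normalization by the authors. Per the submitters' processing notes reads were processed with Cell Ranger 6.0.1 on mm10, and per the file headers the matrices came from cellranger-6.0.1 and spaceranger-1.2.1. How reads of similar genes were assigned is not given in the sources used here. The 10 genes and all lists were chosen with earlier results of these data known.

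Barcodes entered the analysis if they had 500 or more genes and no more than 20% mitochondrial UMIs, and cells with the highest Scrublet scores were removed (0.8% per 1000 cells). Clustering in scanpy 1.11.5 used 2000 variable genes, 30 principal components, 15 neighbours and the Leiden method at resolution 1. The 10 genes, other Defa genes, alpha-defensins under other symbols such as Gm14851, and Lyz2 were left out. A cluster was named by markers fixed by list and is called by that name with the ending "-like". Spots with at least 500 UMIs were kept. Summed UMIs were given as CPM with exact Poisson 95% intervals (scipy 1.17.1), and ratios as log2 with exact conditional intervals, where a count under 3 was set to 3. Genes with at least 100 UMIs over both groups were compared. Shares of cells have Clopper-Pearson intervals. Spots were thinned to 2000 UMIs before splits. The ratio and interval steps were tested on simulated data. With 1 library per group, and technical duplicates for sections, no test was run. Named were the 10 genes, a fixed companion list, and the 5 most alike genes by correlation. Other cell filters, resolutions, totals and means, and single cells left out, were tried as alternatives. Comparison of protein sequences was not run.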

Additional observations from a re-analysis of the deposited data

How the results depend on the processing

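The excess of the summed 10 genes in small intestinal Paneth-like cells (log2 6.20) was 5.54 with a loose and 5.52 with a strict cell filter, 5.93 with doublets kept, 6.46 with defensins put back into clustering, 7.98 and 5.88 with members, or mitochondrial and ribosomal genes, left out of the total, and 5.82 as a mean of cells. Per gene, 100 of 100 alternatives kept the direction. The size of the class moved with the filter, from 207 of 2695 kept cells to 523 of 4660 (loose) and 102 of 1827 (strict). The share of member UMIs in non-epithelial cells (1.96%) was 1.90%, 0.651% and 1.91% under these filters, 1.97% and 2.01% at resolutions 0.5 and 2, 0.670% with defensins put back, 2.01% and 2.35% under the other totals, 1.07% as a mean of cells and 0.678% without 1 cell. Defa21 plus Defa22 were 14.6% of member UMIs of Paneth-like cells, 14.9% under either filter, 14.7% with defensins put back and 13.3% as a mean. The coculture difference over all kept cells (0.32) was 0.36 (loose), 0.25 (strict), 0.34 (without mitochondrial and ribosomal genes), 0.64 (mean of cells, where 5 and not 3 genes passed log2 1) and 0.41 (without the top cell). In the secretory cluster (0.91) it was 1.11, 0.73, 0.77, 1.04, 0.81, 0.79, 1.02, 0.85, 0.69 and 0.96 under the loose filter, the strict filter, doublets kept, resolution 0.5, resolution 2, defensins put back, each other total in turn, the mean and without the top cell. Lyz1 over all kept cells turned from −0.37 to 0.00098 with the mean of cells, and AY761184 in the cluster from −0.56 to 0.026 without the top cells; the other 99 of 100 alternatives per gene in each kept the direction. The causes were not tested.

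The small over large intestinal difference (12.30) ran from 11.86 to 12.75 when 1 section was left out. Member UMIs in spots with against without a Paneth marker (3.25 in section 1 and 2.62 in section 2) were 2.41 at 1000 UMIs and 4.33 for the highest spots in section 1, and 3.78 unthinned (2570 spots against 1), 2.76 with 2 marker UMIs and 4.52 for the highest spots in section 2. In section 1 the unthinned split left no spot without a marker and has no value. The difference of the Defa21 and Defa22 share by ileal genes (−2.46 and −1.82 percentage points) was −1.77 with 3 ileal UMIs and −0.62 unthinned in section 1, where 6 spots lacked such UMIs, and turned to 5.82 unthinned in section 2, where 10 did. No paired analysis was possible because the shared numbers mark technical duplicates of different tissues and no result came from a test. Depth limits what can be said of Defa3 in single cells and of the defensins in large intestine.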
